A study of Mus musculus with 18 samples.

Results

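The comparison described here is that of GFP+ basal keratinocytes (b-KC GFP) of psoriasis-like DKO* mice with basal keratinocytes of control mice (b-KC Co). It takes 6 of the 18 RNA-seq libraries of the series, 3 mice in each group, chosen by the population and mouse number in the sample names. The Co libraries came from mice 810, 825 and 828, and the GFP libraries from mice 814, 815 and 817. All mice carried a tamoxifen-inducible Cre driven by the K5 promoter (K5-Cre-ERT), which acts in the basal layer of the epidermis, and the mT/mG reporter, in which recombination replaces membrane Tomato by membrane GFP. DKO* mice were floxed for both alleles of JunB and of c-Jun. Control mice had wild-type or heterozygous floxed alleles, and which of the 3 was heterozygous is not given in the sources used here. Males and females aged 8 weeks received 4 daily injections of 2 mg tamoxifen, and ear epidermis was collected at day 7. Cells negative for CD45 and CD34 and high for CD49f were sorted as basal keratinocytes, and those of DKO* mice were further split into GFP+ and Tomato+ (Tom) fractions. No colour gate is given for the Co cells, so recombination, the colour gate and the inflamed skin around the GFP+ cells cannot be told apart in this comparison. In sorted bulk RNA, fewer cells of a type and less RNA per cell cannot be told apart either.

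Basal keratinocytes are the dividing layer of the epidermis. They hold on to the basement membrane through integrins and collagen XVII, express keratins 5 and 14, and replace them with keratins 1 and 10 when they move up and differentiate. c-Jun and JunB are subunits of AP-1, a dimeric transcription factor that binds the sequence TGACTCA and is induced by growth factors, stress and cytokines. In psoriasis, keratinocytes over-proliferate, switch to keratins 6, 16 and 17 and release antimicrobial proteins, chemokines and cytokines of the IL-1, IL-36 and IL-20 families.

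Expression was read as deposited FPKM, a read count scaled to transcript length and library size. The steps between low FPKM values corresponded to 19785300 to 23218300 reads in the 6 libraries, where 78.2% to 81.3% of the low values of each library lay within 0.1 of a whole read, so that 3 reads on a transcript of 1 kb were worth 0.129 to 0.152 FPKM. The basal keratinocyte markers were present in both groups, with Krt5 at 4928 to 5529.5 FPKM in Co and 2753 to 5473 in GFP, while Ptprc, which encodes CD45, stayed at or under 0.0636 FPKM. Cd34 was at 1.13 to 2.04 FPKM in Co and 0.382 to 2.43 in GFP, against 889 in the sorted hair follicle stem cells (HF-SC) of mouse 810. Krt14 was listed at 0 in the GFP library of mouse 817 and at 6838 to 10559.6 FPKM in the other 5 libraries, a value that may be a failed estimate, and it is not read as a change. The GFP library of mouse 817 stood apart from the other 2 of its group. Its log2(FPKM + 1) values correlated at 0.943 to 0.951 with the Co libraries across the tested genes, against 0.894 to 0.914 for mice 814 and 815. For some lists the counts without it are given too, and other lists moved as well. Leaving out a mouse means here leaving out its b-KC GFP library.

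The targeted genes were lower in each GFP library than in each Co library. Jun (chromosome 4, 94715725 to 94718913, minus strand, mm9), which encodes c-Jun, was at 876, 980 and 1000 FPKM in Co mice 810, 825 and 828 and at 53.9, 65.4 and 29.6 FPKM in GFP mice 814, 815 and 817. Junb (chromosome 8, 87500811 to 87502617, minus strand) was at 737, 772 and 740 FPKM in Co and at 69.4, 72.2 and 37.2 in GFP. The means of 49.6 ± 18.3 (SD, n = 3) for Jun and 59.6 ± 19.4 for Junb were 19.2-fold and 12.6-fold below the Co means of 952 ± 66.3 and 749 ± 19.2. On the log2(FPKM + 1) scale used for all tests below, which understates the change of low genes, Jun fell by 4.30 (SE 0.40, adjusted p = 2.3e-06) and Junb fell by 3.69 (SE 0.30, adjusted p = 7.88e-07) (limma, Benjamini-Hochberg adjustment). The lowest Jun and Junb of the group were in mouse 817, the library nearest to Co across all genes.

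Of 12751 genes tested, 239 (1.87%) were called (adjusted p under 0.01, log2 fold change of 2 or more in either direction), 164 higher (1.29%) and 75 lower (0.588%) in b-KC GFP. By the adjusted p alone, 1597 genes (12.5%) were higher and 1529 (12.0%) lower, and the median log2 fold change of all tested genes was -0.03. The 3 GFP libraries lay outside the range of the 3 Co libraries for 7521 genes (59.0%), and for 238 of the 239 called genes, the exception being Krt6a. For called genes this is largely fixed by the call, which asks for a large change beside a small spread, and it is a description. Without the GFP library of mouse 817, 389 genes were called, 247 higher and 142 lower. By the adjusted p alone 2128 genes were then higher and 1916 lower. The genes called higher held 7.08% to 19.2% of the summed FPKM of a GFP library and 0.520% to 0.696% of a Co library. Among the called genes named here, Pglyrp1, Serpinb2, Il1f6, Il17c, Areg, Krt6a, Klk6, Pgk1, Gapdh, Lor, Flg2, Col17a1, Hlf, Wnt3a, Mmp3, Scd1, Cd177, Ear6, Dkkl1, Pla2g4e and Thbd lost the call when a certain single library of these 6 was left out. At the threshold of 2, the called genes with the smallest changes were Dkkl1 (-2.0), Pla2g4e (2.0) and Thbd (2.01), and the nearest genes that missed it were Klf11 (-2.0), Hddc3 (1.99) and Sprr2k (1.99).

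**Figure D1:**
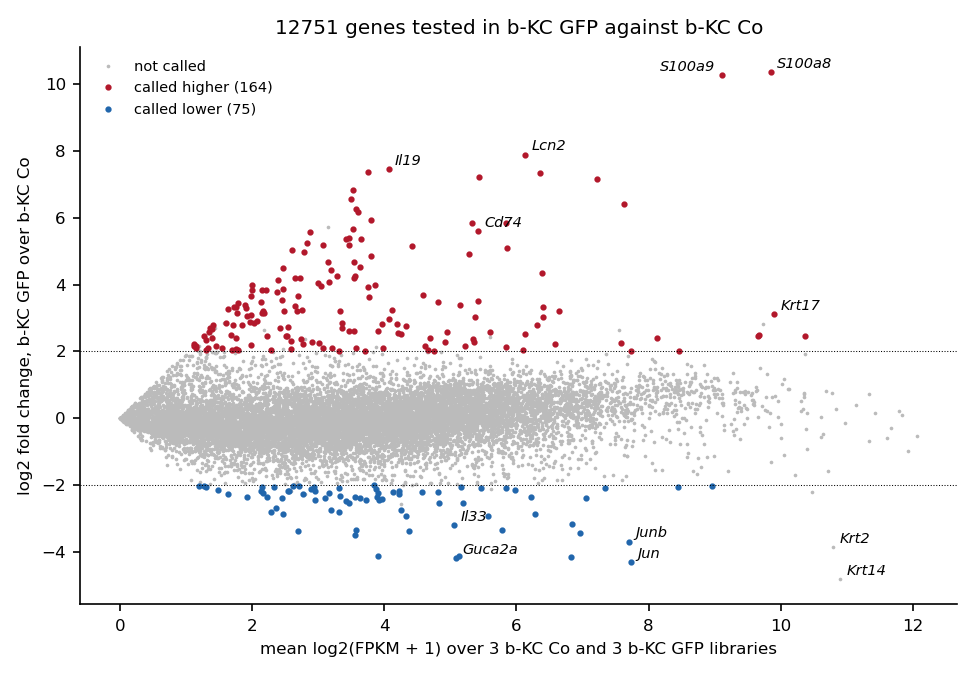
Log2 fold change of b-KC GFP over b-KC Co (vertical axis) against the mean log2(FPKM + 1) of the 6 libraries (horizontal axis) for the 12751 genes tested. Red and blue points are the 164 genes called higher and the 75 called lower, grey points are not called, and the dotted lines mark log2 fold changes of 2 and -2; S100a8 and S100a9 lie at the top, Jun and Junb among the lowest called genes, and Krt14 and Krt2 are low but not called.

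The largest increases were those of S100a8 and S100a9, the 2 subunits of calprotectin, a calcium-binding protein released by inflamed epithelium and by myeloid cells. S100a8 (chromosome 3, 90472993 to 90473956) was at 61.9, 3.27 and 62.0 FPKM in Co and at 57584, 48183 and 13415 in GFP. The 2 groups did not overlap, mouse 825 was the lowest Co library and mouse 817 the lowest GFP library, and S100a8 rose by 10.35 (SE 1.06, adjusted p = 6.6e-06). S100a9 rose by 10.27 (SE 0.95), from 34.2, 2.19 and 33.5 FPKM to 37576, 27536 and 7092. Together they made up 4.12% to 13.5% of the summed FPKM of a GFP library and at most 0.0207% of a Co library. Among the 12 tested S100 genes these 2 were called, S100a1 passed the adjusted p alone (1.45), and the other 9 did not pass. S100a6 and S100a11, also abundant in the epidermis, had log2 fold changes of 0.15 and 0.29 and did not pass. With the trend of fold change on transcript length removed, each was at -0.51, and the list had 3 genes passing upward and 4 downward, with a median of -0.08 in place of 0.40.

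Other secreted defence proteins rose with them. Lcn2, an iron-scavenging protein that starves bacteria, was at 5.96, 2.49 and 2.93 FPKM in Co and at 2024, 1557 and 401 in GFP, and rose by 7.89 (SE 0.58, adjusted p = 5.17e-07). Defb3, a beta-defensin, rose by 6.16 (SE 0.76), from at most 1.07 FPKM to 195, 198 and 26.7. Slpi, an inhibitor of leukocyte elastase, rose by 4.93 (SE 0.42), from 4.79 to 8.31 FPKM to 98.7 to 329. Of the 18 tested genes of the antimicrobial list, 5 were called higher and none lower, 7 passed the adjusted p upward and 1 downward, and the median log2 fold change was 1.94. The other 2 called were Pglyrp1, a peptidoglycan recognition protein (3.15), and Plac8, which was listed at 0 in all 3 Co libraries and at 23.7, 16.6 and 1.01 FPKM in GFP. Without mouse 817, 9 of the 18 were called, and with the length trend removed, for the 17 genes of known length, 5 were called with a median of 1.21. Wfdc17, a small whey acidic protein-type gene, rose by 7.35 and was at 68.0 to 344 FPKM in GFP, and the ribonuclease gene Rnase2b rose by 6.26 and was at 20.7 to 244. Uox, which encodes the uric acid-degrading enzyme urate oxidase, rose by 6.57 (SE 0.69), from at most 0.266 FPKM to 266, 180 and 26.1.

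**Figure D2:**
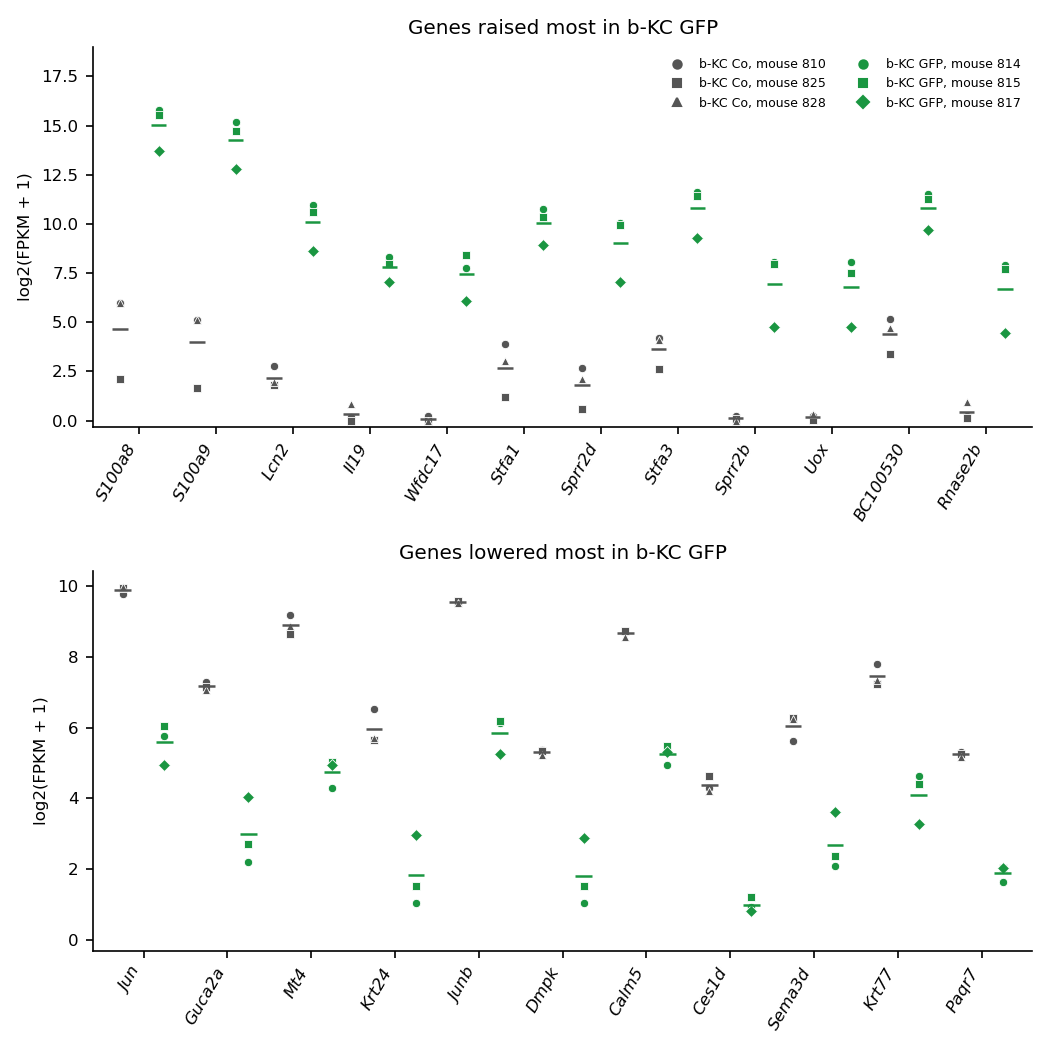
FPKM on the log2(FPKM + 1) scale for 12 of the genes raised most and 11 of those lowered most among called genes whose groups do not overlap. Each point is 1 library (grey, b-KC Co; green, b-KC GFP; the shape gives the mouse) and bars are group means of 3; for most raised genes mouse 817 (diamond) is the lowest GFP library.

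Called genes of the Sprr2, stefin and kallikrein families lay in chromosomal clusters. All 8 genes tested between positions 92120627 and 92223318 of chromosome 3 (mm9), all of the Sprr2 family, were called higher. Each span given here and below runs from the first to the last of a series of called genes with at most 100000 bases between neighbours, so its ends are called genes by construction and the share called inside it is a description. Small proline-rich proteins cross-link the cornified envelope and are made in excess in psoriatic epidermis. Sprr2d was at 5.50, 0.519 and 3.38 FPKM in Co and at 1075, 1001 and 134 in GFP, a rise of 7.23 (SE 0.75, adjusted p = 7.61e-06). Sprr2b rose by 6.83 (SE 0.78), from at most 0.185 FPKM to 267, 253 and 26.2. Of the 12 tested genes of the Sprr list, 7 were called higher, 9 passed the adjusted p upward and none downward, with a median of 4.09. Sprr2k (1.99) was among the 5 not called. Without mouse 817, 9 of the list were called and the median was 4.82. Of the 6 genes tested between 36210489 and 36455478 on chromosome 16, where the stefins, inhibitors of cysteine cathepsins, lie, 5 were called higher. Stfa1 was at 13.8, 1.27 and 7.15 FPKM in Co and at 1729, 1323 and 496 in GFP (7.33, SE 0.71), Stfa3 rose by 7.15 and BC100530 by 6.41. Reads shared between such near-identical genes make the split among members uncertain.

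The wider list of stefins and serpins had 26 tested genes, of which 10 were called higher and 1 lower, with a median of 1.64. With the length trend removed, which could be done for 24 of them, 7 were called higher and 2 lower, with a median of 0.84. Serpinb3a, related to the human squamous cell carcinoma antigens, rose by 5.08 (SE 0.85), from 6.19 to 15.3 FPKM to 108 to 649. Serpinb2, plasminogen activator inhibitor 2, was the member called lower: it fell by 2.02, from 842, 1199 and 988 FPKM to 209, 241 and 298. The cluster of kallikreins on chromosome 7, proteases that shed surface cells, had 3 of 8 tested genes called higher between 50967937 and 51087397. Klk13 rose by 5.19 (SE 0.72), Klk10 by 3.51 and Klk6 by 3.37, while Klk5 passed the adjusted p in the other direction (-1.81). Of the 10 tested kallikreins of the list 3 were called, and 5 without mouse 817.

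The promoters of these genes were read for the AP-1 site, since the deleted factors bind it. RefSeq promoters (GRCm38.p6, 250 bases before to 50 after each start) were matched by symbol for 133 of the 164 genes called higher, 62 of the 75 called lower and 10081 of the 12751 tested. The site TGACTCA, read on both strands as TGACTCA or TGAGTCA, was present for 20 of the genes called higher (15.0%), 7 of those called lower (11.3%) and 490 of those tested (4.86%), and in 5.20% of all 32851 promoters of the table. All 6 Sprr2 genes with a promoter held it, and without the Sprr2 genes the share of the genes called higher was 14 of 127 (11%). The related site TGACGTCA, its own reverse complement, which shares no match with the first, was present for 3.01%, 3.23% and 3.62%. These shares are descriptions of the windows and not of binding. The 250 bases upstream of 6 starts follow, 5′ to 3′ on the gene's strand, because Sprr2d, Sprr2b and Il1a stand for raised genes and Guca2a and Lor for lowered genes that hold the site (capitals), and S100a8, the gene raised most, has no match in its window. The site begins 193 bases before the start in Sprr2d, 195 in Sprr2b, 200 in Guca2a, 48 in Lor and 12 in Il1a.
Sprr2d (chr3:92338890-92339139, plus strand): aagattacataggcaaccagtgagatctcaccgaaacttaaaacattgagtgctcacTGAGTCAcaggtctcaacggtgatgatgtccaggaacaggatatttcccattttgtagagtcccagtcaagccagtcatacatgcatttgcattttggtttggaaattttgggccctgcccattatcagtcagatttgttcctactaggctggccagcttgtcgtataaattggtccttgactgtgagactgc
Sprr2b (chr3:92316455-92316704, plus strand): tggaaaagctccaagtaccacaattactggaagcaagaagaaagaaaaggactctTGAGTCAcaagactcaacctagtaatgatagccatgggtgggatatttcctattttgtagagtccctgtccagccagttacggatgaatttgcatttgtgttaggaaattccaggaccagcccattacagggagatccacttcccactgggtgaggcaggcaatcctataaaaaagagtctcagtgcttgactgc
Il1a (chr2:129309973-129310222, minus strand): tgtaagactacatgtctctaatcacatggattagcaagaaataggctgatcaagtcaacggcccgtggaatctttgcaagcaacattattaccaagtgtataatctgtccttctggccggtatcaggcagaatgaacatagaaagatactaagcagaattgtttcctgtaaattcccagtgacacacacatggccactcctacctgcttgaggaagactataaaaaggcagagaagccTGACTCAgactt
Guca2a (chr4:119637482-119637731, plus strand): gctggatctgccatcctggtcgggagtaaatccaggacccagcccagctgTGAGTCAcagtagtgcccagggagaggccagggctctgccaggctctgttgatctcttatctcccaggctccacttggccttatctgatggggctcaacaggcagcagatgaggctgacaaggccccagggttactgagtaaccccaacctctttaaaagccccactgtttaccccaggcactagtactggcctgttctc
Lor (chr3:92083143-92083392, minus strand): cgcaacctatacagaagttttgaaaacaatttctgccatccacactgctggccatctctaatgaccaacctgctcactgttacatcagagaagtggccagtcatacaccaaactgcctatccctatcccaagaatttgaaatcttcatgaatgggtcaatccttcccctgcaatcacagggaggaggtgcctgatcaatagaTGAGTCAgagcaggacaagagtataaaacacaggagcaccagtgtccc
S100a8 (chr3:90668821-90669070, plus strand): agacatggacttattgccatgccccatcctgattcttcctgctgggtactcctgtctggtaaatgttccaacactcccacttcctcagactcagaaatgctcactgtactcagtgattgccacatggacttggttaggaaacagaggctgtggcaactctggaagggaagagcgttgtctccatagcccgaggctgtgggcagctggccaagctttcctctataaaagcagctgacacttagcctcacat

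Of the 27 tested cytokine genes, 6 were called higher and 1 lower. Il19, an IL-20 family cytokine, was at 0.126, 0 and 0.766 FPKM in Co and at 321, 253 and 133 in GFP, and its rise of 7.46 (SE 0.33, adjusted p = 1.58e-09) was the largest of them. Il20 and Il24 of the same family had values of 0.94 and 0.95 and did not pass. Il1a rose by 2.85 (SE 0.36), from 2.33 to 3.30 FPKM to 38.9, 40.6 and 11.6. Il1f9, which encodes IL-36 gamma, rose by 3.04, from 10.9 to 15.3 FPKM in Co. It was at 53.03 FPKM in mouse 817 and at 172 and 181 in the other GFP libraries. Il1f6, which encodes IL-36 alpha, rose by 3.54, with 3.20 FPKM in mouse 817 and 37.7 and 38.3 in the other GFP libraries. Tslp, an alarmin that acts on dendritic cells and keratinocytes, was at 7.09, 6.26 and 7.64 FPKM in Co and at 55.2, 52.9 and 30.1 in GFP (2.51, SE 0.25). Il17c, an epithelial cytokine, rose by 2.35, to 9.35 and 8.62 FPKM in mice 814 and 815 and 0.719 in mouse 817. Il33, the nuclear alarmin of the IL-1 family, moved the other way: it was at 92.5, 96.9 and 110 FPKM in Co and at 6.71, 9.34 and 15.7 in GFP, and fell by 3.19 (SE 0.33, adjusted p = 7.61e-06). By the adjusted p alone 12 cytokine genes were higher, 2 lower and 13 did not pass, and the median was 0.95. Il23a and Tnf passed it without reaching the fold threshold, at 1.95 and 1.52.

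Neutrophil-attracting chemokines rose together. Cxcl1 was at 39.2, 22.4 and 37.1 FPKM in Co and at 363, 312 and 250 in GFP (3.21, SE 0.41). Cxcl2 rose by 3.95 (SE 0.18), Cxcl3 by 5.57 and Cxcl5 by 5.02, each from at most 1.45 FPKM in Co. Ccl20, which attracts cells through CCR6, was already at 72.7 to 96.3 FPKM in Co and rose by 2.24 to 275 to 547. These 5 were the called members of 20 tested chemokine genes, none was called lower, and the median was 0.80. With the length trend removed Ccl20 was at 1.89, 4 were called, 2 rather than 1 passed the adjusted p downward and the median was 0.39. Cx3cl1, a membrane-bound chemokine, passed the adjusted p downward (-1.15).

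Of 36 tested receptors and feedback regulators 1 was called, against 1.87% of all genes. Bcl3, a nuclear IkB protein, was at 5.71, 4.07 and 5.37 FPKM in Co and at 43.6, 47.2 and 46.3 in GFP and rose by 2.96 (SE 0.18, adjusted p = 8.85e-08). By the adjusted p alone 7 of the 36 were higher and 8 lower, against 12.5% and 12.0% of all genes, and the median was -0.19. Among the lower ones were both chains of the type I IL-20 receptor, which binds IL-19, Il20ra (-1.75) and Il20rb (-1.32), and Socs3, the feedback inhibitor of STAT3 signalling (-1.37). Il20rb was at 205 to 216 FPKM in Co and at 75.8 to 93.1 in GFP. The decoy IL-1 receptor Il1r2 passed the adjusted p downward (-1.77), and the chemokine receptor Cxcr2 upward (1.77). Of 12 tested genes of the EGF family, the ligand Areg was called (2.17), and 4 passed the adjusted p upward and 2 downward. With the length trend removed none was called.

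Of the 5 tested keratins of stressed and wounded epidermis 3 were called higher, with a median of 2.80, and 4 without mouse 817. Krt17 was at 421, 282 and 284 FPKM in Co and at 4831, 4000.2 and 1159.5 in GFP (3.12, SE 0.48). Krt6b rose by 5.84 (SE 0.76), from 22.6, 0.928 and 8.52 FPKM to 866, 622 and 149. Krt6a was called at 2.80 (SE 0.66), but its lowest GFP value, 62.5 FPKM in mouse 817, lay below the highest Co value of 81.3. Krt16 had 53.6 to 132 FPKM in Co and 151 to 879 in GFP, and its log2 fold change of 2.63 narrowly missed the threshold (adjusted p = 0.0105). Krt75, the other member, was at or under 0.443 FPKM in all 6 libraries, its groups overlapped, and it did not pass (0.18).

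**Figure D3:**
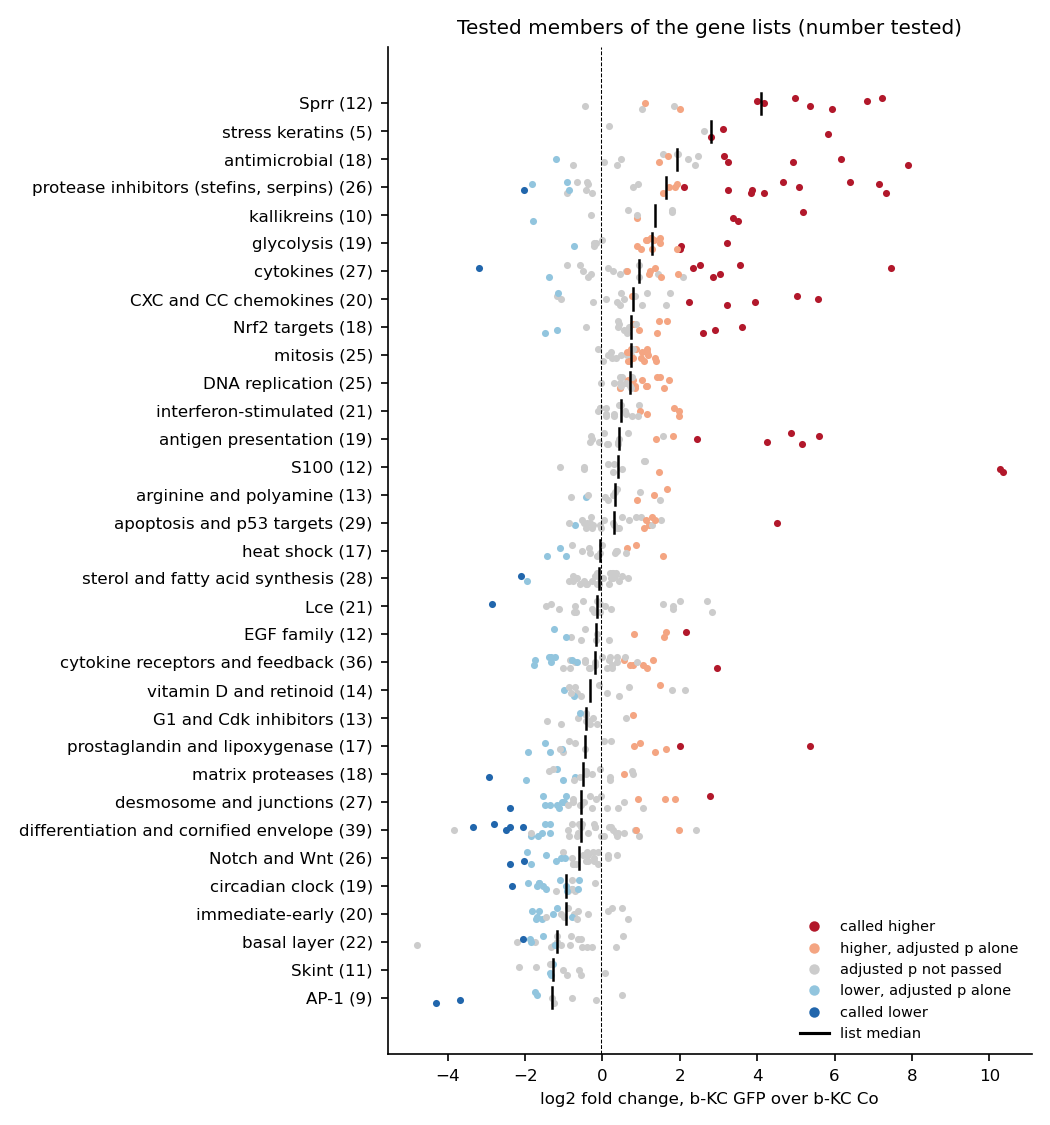
Log2 fold change of b-KC GFP over b-KC Co (horizontal axis) for the tested members of 33 gene lists, ordered by list median (black bars), with the number tested in brackets. Dark red and dark blue points are called genes, pale points passed the adjusted p alone, grey points did not pass, and the dashed line is the median of all tested genes; the Sprr list has the highest median (4.09) and the AP-1 list, which includes the deleted Jun and Junb, the lowest (-1.31); without these 2 genes it is at -1.24 and the Skint list is lower (-1.28).

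Genes of MHC class II antigen presentation were higher in sorted CD45-negative cells. Cd74, the invariant chain, was at 3.32, 6.07 and 6.53 FPKM in Co and at 287, 401 and 230 in GFP, and rose by 5.61 (SE 0.45, adjusted p = 7.48e-07). H2-Ab1 rose by 5.16, H2-Aa by 4.86 and H2-Eb1 by 4.26, and these are the 3 tested genes between 34400154 and 34453144 on chromosome 17. H2-DMa, which loads peptide, rose by 2.45. Ciita, the transactivator of class II genes, passed the adjusted p (1.38), from at most 0.125 FPKM to 1.42, 2.13 and 1.77. Class I genes of the same list did not pass: H2-D1 and H2-K1 had values of 0.43 and 0.41. Over the 19 tested genes 5 were called higher, 7 passed the adjusted p upward and none downward, and the median was 0.43.

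Markers of other cells were read beside these genes. Of the 6 tested markers of Langerhans and dendritic cells 4 were called higher and none passed the adjusted p downward, with a median of 4.56. Of all 12 of these markers, 6 were under 1 FPKM in all 3 GFP libraries, and 6 in all 3 Co libraries. Those low in GFP included Cd207 (0.165 to 0.615), Itgax (at most 0.0372) and Clec9a (0). The summed level of 467 to 859 FPKM, against 76.3 to 112 in Co, came mainly from the class II genes and Epcam. Of the 12 leukocyte markers 5 were under 1 FPKM in all 3 GFP libraries, against 11 in all 3 Co libraries. Of the 8 tested 4 passed the adjusted p upward and none downward, the median log2 fold change was 0.89 and the lowest 0.59, and the groups did not overlap for any of the 8, as for 59.0% of all genes. The sum was 424 to 572 FPKM in GFP and 130.0 to 165 in Co, of which Arhgdib was the main part (415 to 561 FPKM in GFP, log2 fold change 1.71). Of the 14 neutrophil markers 11 were under 1 FPKM in all 3 GFP libraries, with Elane at 0, Csf3r at most 0.229 and Retnlg at most 0.696 FPKM. The 3 others were Il1r2, Cxcr2 (6.35 to 9.34 FPKM) and Camp (0.471 to 1.52). The sum of that list was lower in GFP (45.7 to 53.8 FPKM) than in Co (131 to 165), with Il1r2 as its main part. Macrophage and monocyte markers summed to 4.06 to 4.80 FPKM in GFP and 1.04 to 1.76 in Co, with 11 of 12 under 1 FPKM in all 3. The sums in GFP and Co overlapped for T cell (10.3 to 23.3 and 15.0 to 21.0), melanocyte (4.61 to 6.13 and 5.24 to 7.04), endothelial (2.22 to 7.86 and 2.15 to 4.00), fibroblast (25.8 to 45.6 and 31.8 to 41.9) and sebocyte and infundibulum markers (639 to 2358 and 1421 to 1829). Of the 14 tested sebocyte and infundibulum markers 3 were nonetheless called, Klk6 higher (3.37) and Acsbg1 (-2.35) and Scd1 (-2.10) lower, 1 passed the adjusted p upward and 4 downward, and the median was -0.65. The sum of hair shaft and inner root sheath markers was lower in GFP (56.8 to 78.5) than in Co (122 to 149). So was that of hair follicle stem cell markers (688 to 1489 and 3221 to 3378), which is mostly Krt15. Most members did not pass: 2 of 7 tested hair shaft and inner root sheath markers passed the adjusted p downward and 5 did not pass. Of 13 hair follicle stem cell markers 1 passed downward and 12 did not pass, and no gene of either list was called. Outside these lists, and chosen after their values were seen, the leukocyte-associated genes Vav1 (2.84, 5.50 to 8.61 FPKM in GFP), Cd177 (2.69, 0.624 to 15.4), Tarm1 (2.11, 3.75 to 4.91), Ear2 (3.08, 3.88 to 19.02) and Ear6 (3.45, 1.45 to 25.1) were called higher. The part of these leukocyte and macrophage signals in the other results was not tested.

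Glycolytic genes shifted upward as a group: 14 of 19 tested passed the adjusted p upward and 1 downward, 3 were called, and the median was 1.27, against -0.03 for all genes. Slc16a3, a lactate exporter, rose by 3.22 (SE 0.48), from 1.25 to 3.54 FPKM to 56.6, 39.3 and 11.5. Ldha, which makes lactate, was at 590 to 789 FPKM in Co and at 1591 to 3694 in GFP (1.93, adjusted p = 0.000105). Gapdh (2.01) and Pgk1 (2.02) just reached the fold threshold. With the length trend removed, the median was 1.12 and 1 gene was called. Genes of the NRF2 antioxidant response were led by Gpx2 (3.62), the cystine transporter Slc7a11 (2.92) and Nqo1 (2.59), the 3 called of 18 tested, of which 8 passed the adjusted p upward and 2 downward. Gstm1, a glutathione transferase, was among those lower (-1.49). Alox8, a lipoxygenase, was at 0.750, 0.904 and 1.23 FPKM in Co and at 96.1, 95.7 and 54.5 in GFP (5.37, adjusted p = 2.3e-09), while Ptgs1, the constitutive cyclooxygenase, passed the adjusted p downward (-1.93). Gsdmc, a pore-forming gasdermin, rose by 4.51.

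Of all genes 12.5% passed the adjusted p upward and 12.0% downward, and of 25 mitosis genes 15 passed upward, none downward and 10 did not pass, with a median of 0.73. Of 25 DNA replication genes 13 passed upward, none downward and 12 did not pass, with a median of 0.72. The list of G1 genes and Cdk inhibitors had a median of the other sign (-0.42), with 1 of 13 tested genes passing upward and 1 downward. No gene of the 3 lists was called. Ccnb1, the mitotic cyclin, was at 61.7, 58.8 and 56.9 FPKM in Co and at 160.2, 147 and 105 in GFP (1.18, SE 0.18). Birc5 (1.37), Ccne1 (1.72) and the ribonucleotide reductase subunit Rrm2 (1.42) are further examples. With the length trend removed the medians were 0.77 and 0.79.

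Beside the targets, the lowered genes were led by Guca2a. Guca2a, the precursor of the peptide guanylin, was at 157, 142 and 132 FPKM in Co and at 3.61, 5.52 and 15.5 in GFP, and fell by 4.19 (SE 0.50, adjusted p = 2.55e-05). Mt4, the metallothionein of squamous epithelia, was at 582.4, 403 and 468 FPKM in Co and at 18.6, 31.4 and 29.8 in GFP and fell by 4.15 (SE 0.46). Krt24 (-4.12), Dmpk (-3.49), the calmodulin-like gene Calm5 (-3.42), the carboxylesterase Ces1d (-3.38), the semaphorin Sema3d (-3.37) and Paqr7 (-3.34) were also among the genes lowered most. Mouse 817 was the GFP library nearest to Co for Guca2a, Krt24, Dmpk and Sema3d, and the farthest from it for Jun, Junb, Ces1d and Krt77.

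Several differentiation genes were lower, with 5 of 39 tested called lower, none called higher, 11 passing the adjusted p downward and 2 upward, and a median of -0.56. Without mouse 817, 6 were called lower and 2 higher, and the median was -0.36. Krt77, a suprabasal keratin, was at 221, 149 and 161 FPKM in Co and at 23.9, 20.4 and 8.65 in GFP and fell by 3.35 (SE 0.48). Lor, which encodes loricrin, the main protein of the cornified envelope, was at 19.3, 25.8 and 28.8 FPKM in Co and at 2.10, 5.44 and 3.65 in GFP (-2.48, SE 0.50). Dsg1a (-2.38), Krt78 (-2.80) and Flg2 (-2.06) were also called. Krt10 passed the adjusted p (-1.56), from 2579.9 to 3418 FPKM to 719 to 1283. Krt2 was at 6316 to 7268 FPKM in Co and at 158, 302 and 2129 in GFP, and with this spread its log2 fold change of -3.84 did not pass (adjusted p = 0.0207). Tgm1, the transglutaminase that cross-links the envelope, passed in the other direction (1.98).

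Some genes that anchor basal cells were lower. Col17a1, hemidesmosomal collagen XVII, was at 652, 732 and 754 FPKM in Co and at 110, 129 and 354 in GFP and was the basal layer gene called (-2.05, SE 0.48, adjusted p = 0.00362). Dst (-1.86), which links keratins to the hemidesmosome, the laminin chain Lama3 (-1.53) and the Notch ligand Dll1 (-1.83) passed the adjusted p, as 5 of 22 tested genes did, all downward, with a median of -1.17. Without mouse 817, 11 passed and 4 were called, and of all genes 1916 rather than 1529 passed downward. Krt5 (-0.54) and Itga6 (-0.63), which encodes CD49f, did not pass. Krt14 entered with its listed 0 in mouse 817 and did not pass. With such zeros as missing its log2 fold change was -0.55 (limma, adjusted p = 0.145). Krt15 was at 3038 to 3102 FPKM in Co and at 496, 513 and 1137 in GFP, and did not pass as deposited (-2.21, adjusted p = 0.465). Its value in the HF-SC Co library of mouse 828 is listed at 0, against 11261 and 11764 FPKM in the other 2, and with such zeros as missing it was called (-2.21, adjusted p = 0.00244). Removing the length trend left Col17a1 at -1.74, Dst at -1.12 and Lama3 at -1.03, all long transcripts.

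Fos and Fosb, partners of the targets in AP-1, were also lower. Fos was at 2073, 2046 and 2308 FPKM in Co and at 471, 474 and 1305 in GFP (-1.69, adjusted p = 0.00421), and Fosb was the other subunit to pass (-1.74, adjusted p = 0.00478). Fosl2, at 20.5 to 26.9 FPKM in GFP and 21.3 to 31.3 in Co, had a log2 fold change of -0.16, which became 0.17 with the length trend removed. Of 9 tested AP-1 genes 4 passed downward and none upward, and the median was -1.31. The 4 include the deleted Jun and Junb, and of the other 7 genes 2 passed downward, with a median of -1.24. Of 20 immediate-early genes, which growth factors and cell dissociation induce quickly, 8 passed downward and none upward, with a median of -0.94. Myc (-1.65) and Klf6 (-1.71) were among them. Without mouse 817 the downward counts were 6 of 9 AP-1 genes, or 4 of the 7 that were not deleted, and 13 of 20 immediate-early genes. In that fit 1916 of all 12751 genes passed downward, against 1529 with mouse 817 kept. Fos in the GFP library of mouse 817 lay between the other GFP libraries and Co, whereas its Jun was the lowest of all.

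Many clock genes and some Wnt genes were lower as well. Of 19 tested clock genes 13 passed the adjusted p downward and none upward, with a median of -0.94. Over all 12751 genes tested 12.0% passed downward and 12.5% upward, which is the background for each list of this paragraph. Hlf, a clock-controlled transcription factor, was at 29.7, 32.4 and 35.2 FPKM in Co and at 2.76, 4.13 and 13.6 in GFP and was called (-2.35, SE 0.43); without mouse 817, 4 clock genes were called. Rora (-1.94), Per1 (-1.65) and Nr1d1 (-1.63) passed the adjusted p. The time of day at which each mouse was taken is not given in the sources used here, and its part was not tested. Of 26 Notch and Wnt genes 8 passed downward and none upward, with Nkd2, a Wnt feedback inhibitor (-2.38), and the ligand Wnt3a (-2.04) called and Wnt7b (-1.96) short of the fold threshold; without mouse 817, 4 were called lower. Among 18 matrix protease genes 5 passed downward and 1 upward, and 8 and 1 without mouse 817. Without mouse 817, 1916 rather than 1529 of all genes passed downward. Mmp3 was called lower (-2.92), and the inhibitor Timp3 passed the adjusted p (-1.98). Of 11 Skint genes, a family whose founder selects epidermal gamma-delta T cells, 3 passed downward, Skint7 (-1.36), Skint6 (-1.34) and Skint5 (-1.28), and the median of -1.28 was -0.45 without mouse 817.

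The GFP libraries were ordered alike for most called genes. For 155 of the 164 genes called higher the library of mouse 817 was the GFP library nearest to Co, and its median log2 difference from the Co mean over these genes was 2.08, against 3.76 for mouse 814 and 3.56 for mouse 815. For the 75 genes called lower it was nearest for 51, with medians of -1.99, -2.64 and -2.54 for mice 817, 814 and 815. Its Jun and Junb were the lowest of the group. The cause of the difference between mice was not tested. Transcript length moved with the fold change too: with the 11504 genes of known length split into 5 equal groups, the median log2 fold changes were, from short to long, 0.41, 0.11, -0.04, -0.15 and -0.38. The genes called higher had a median transcript length of 1576 bases, those called lower 2930.0, and all genes 2959. With the trend removed 220 genes were called, 133 higher and 87 lower, of which 186 were among the 239. Without the adjustment the same genes gave 225 calls, 154 higher and 71 lower.

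**Figure D4:**
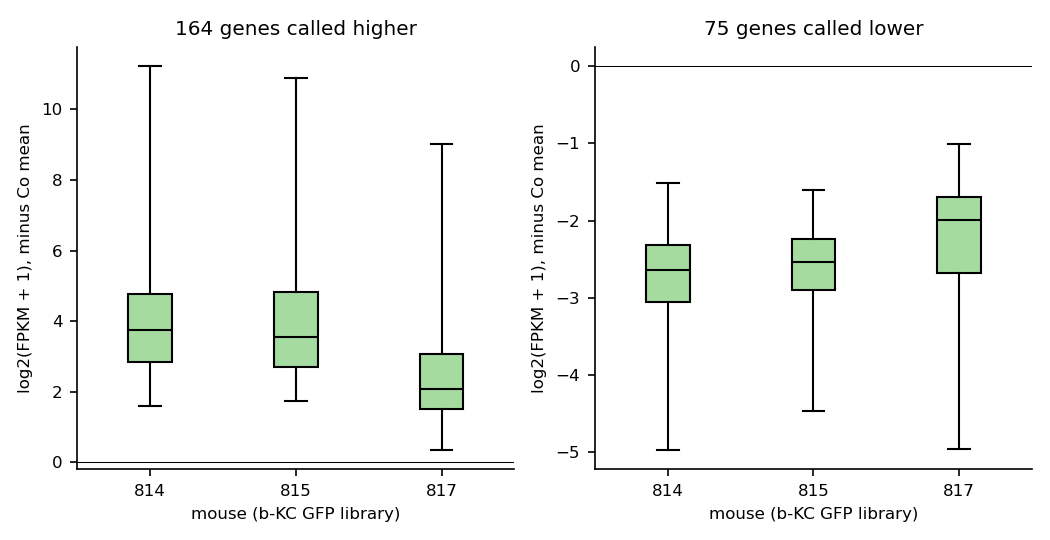
Difference of log2(FPKM + 1) from the Co mean (vertical axis) in each b-KC GFP library for the 164 genes called higher (left) and the 75 called lower (right). Boxes span the quartiles, lines inside are medians and whiskers reach the extremes; mouse 817 has the smallest median difference in both panels (2.08 and -1.99).

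Differences between the sorted fractions of the same mice were read by setting b-KC GFP against the Tom fraction, whose cells kept Tomato in the same skin. Jun was at 163, 229 and 400.4 FPKM in Tom and Junb at 208, 362 and 397, between the GFP and the Co values, so the targets were below Co in the Tomato+ fraction too. Of 12751 genes 11 (0.0863%) were called between the fractions, and 1470 (11.5%) had an unadjusted p under 0.05. Since the mouse links the fractions, fits with the mouse as a block are given: 18 genes were called with a random block and 5 with a fixed block over the fractions alone. Without the GFP library of mouse 817, its Tom library kept, 30 genes were called, and 6 without that of mouse 815. S100a8 had 44024, 34223 and 14189 FPKM in Tom, and its difference between the fractions was not called.

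Slpi showed the largest excess in GFP over Tom: it was at 295, 329 and 98.7 FPKM in GFP and at 17.4, 25.8 and 15.8 in Tom, a difference of 3.4 (SE 0.42, adjusted p = 0.000858). Krt77 was low in GFP and lower still in Tom, at 1.04, 0.767 and 1.65 FPKM (3.02). Serpine2, a serpin that inhibits thrombin and plasminogen activators (2.52), the ribonuclease Ear1 (2.48), the sulfatase Sulf2 (2.17) and Ddit4l, an inhibitor of mTOR signalling (2.12), were also higher in GFP. Ear1 was listed at 0 in all 3 Co libraries. Lower in GFP than in Tom were, besides Jun (-2.36) and Junb (-2.42), the actin bundler Fscn1 (-2.49), the glutathione transferase Gsta4 (-2.70) and Pi15 (-2.09). With the mouse as a fixed block, Ear1, Fscn1, Gsta4 and Pi15 were called (adjusted p = 0.00741 to 0.00966) and the other 7 were not (adjusted p = 0.0117 to 0.038), while with a random block all 11 were. Gsta4 was at 37.6 to 61.9 FPKM in GFP, 310 to 416 in Tom and 11.3 to 28.8 in Co.

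**Figure D5:**
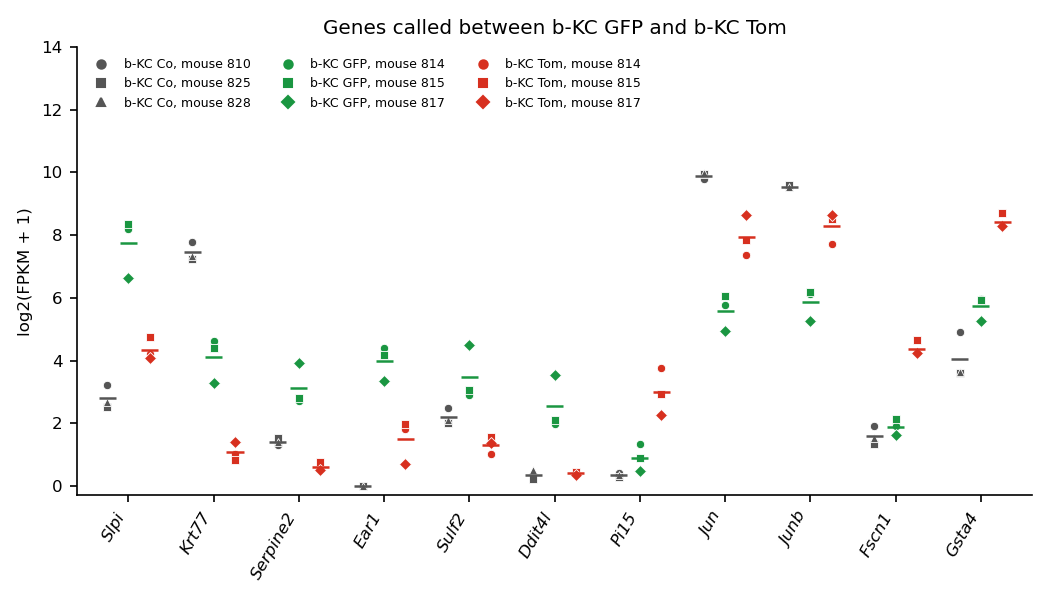
FPKM on the log2(FPKM + 1) scale in b-KC Co, GFP and Tom libraries for the 11 genes called between GFP and Tom, ordered by their difference. Each point is 1 library and bars are group means of 3; Slpi, at the left, is highest in GFP, and Gsta4, at the right, is highest in Tom.

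The change from Co to GFP in b-KC was also set against that in HF-SC of the same mice. It differed for 110 genes (0.863%), 33 (0.259%) with a larger value in b-KC and 77 (0.604%) with a larger value in HF-SC. The collagenase Mmp13 had one of the largest differences, with 1.35 to 6.07 FPKM in b-KC GFP and 53.9 to 93.0 in HF-SC GFP, from 2.26 to 4.82 and 0.182 to 0.380 in the matching Co cells (difference -5.69, SE 0.69, adjusted p = 0.000169). For Jun the difference was -0.24 (SE 0.56) and did not pass.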

How the data were processed

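RNA was sequenced from 18 sorted libraries (SMART-Seq v4, Nextera XT, unstranded), of which 6 form the comparison. The authors aligned reads to mm9 with TopHat2 2.0.10 and deposited FPKM values for 23951 genes, scaled by them to transcript length and library size; the submitters' processing notes also name Cufflinks 2.2.1. Multi-mapping reads make near-identical genes uncertain, as does the lack of strand for overlapping genes.

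A gene was tested (12751 were) if 3 or more of the 18 libraries reached 1 FPKM. Values were taken as log2(FPKM + 1) and all 6 groups entered one limma fit (version 3.58.1, R 4.3.3, eBayes with a trend), followed by Benjamini-Hochberg adjustment. A call needed an adjusted p under 0.01 and a log2 fold change of 2 or more in either direction. Within a group each replicate is 1 mouse, but the spread behind the p-values was pooled over all 6 groups. Libraries of the same mouse in different groups entered this fit as independent. With both compared groups fitted alone, 2403 genes passed the adjusted p, against 3126. Depth was estimated from the steps of low FPKM values over 7744 genes with 1 annotated transcript, and intervals were not derived from it. By the labels the GFP and Tom fractions come from the same mice, and their same-mouse deviations correlated at 0.242 to 0.687 in b-KC, so block fits by mouse were run; Co and GFP share no mouse.

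Genes were named by rule: the targets, S100a8 and Lcn2; the 12 raised and 12 lowered most among called genes whose groups do not overlap; the 4 largest and any called members of a list; the 3 genes on each side of the fold threshold; those called between GFP and Tom; and the 6 largest differences from HF-SC in each direction. One gene that the rule names is not reported here. Other genes were chosen after their values were seen. The comparison and gene lists were chosen with earlier results of these data known. Lengths and positions came from a GENCODE annotation of the files' build, promoters from RefSeq (GRCm38.p6). Alternatives covered thresholds, pseudocount, filters, scaling, blocks, length and left-out libraries.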

Additional observations from a re-analysis of the deposited data

Results flagged for a closer look

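By the interaction term, 110 genes changed differently in b-KC and HF-SC when GFP was set against Co (limma, Benjamini-Hochberg adjustment). The values that follow are the change in b-KC minus the change in HF-SC on the log2(FPKM + 1) scale. The 6 most negative were those of the matrix metalloproteases Mmp3 (-5.77), Mmp13 (-5.69) and Mmp9 (-4.11), the desaturase Scd1 (-3.32), the acyl-CoA oxidase-like gene Acoxl (-3.22) and the metalloprotease Adam8 (-3.21). Mmp3 fell by 2.92 in b-KC, from 86.5 to 197 FPKM to 12.4 to 22.8, and rose by 2.85 in HF-SC, from 8.53 to 16.7 FPKM to 65.0 to 141. Scd1 fell by 2.10 in b-KC (adjusted p = 0.00347).

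The 6 most positive were those of Ramp1, a receptor activity-modifying protein (3.09), the peptide hormone Cck (2.90), the endothelial adhesion molecule Sele (2.88), the prostaglandin-degrading enzyme Hpgd (2.83), Itm2a (2.82) and 6330403K07Rik (2.81). Hpgd rose by 1.64 in b-KC, from 31.0 to 35.8 FPKM to 71.7 to 141. Cck, Sele and Itm2a were at or under 1.01 FPKM in every b-KC Co and GFP library, so their differences came from HF-SC, where GFP libraries were lower than Co libraries. The 16 endothelial markers, Sele among them, summed to 85.4 to 139 FPKM in HF-SC Co and 2.86 to 44.1 in HF-SC GFP, and to at most 7.86 in b-KC Co and GFP. Other marker sums also moved between HF-SC Co and HF-SC GFP. Fibroblast markers summed to 268.7 to 287.9 and 80.86 to 192.6 FPKM, leukocyte markers to 33.71 to 43.81 and 157.5 to 233.0, and macrophage and monocyte markers to 5.512 to 9.053 and 9.404 to 39.15. The part of these cell types in the differences between b-KC and HF-SC was not tested.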

How the results depend on the processing

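With thresholds of 0.01 and 1 on the adjusted p and the absolute log2 fold change, 1381 genes were called in b-KC GFP against Co (706 higher, 675 lower), with 0.05 and 1, 1608 (819 and 789), and with a pseudocount of 0.1, 528 (335 and 193). Leaving out 1 replicate gave 184 to 389 calls, 121 to 247 higher and 63 to 142 lower. No paired analysis was possible between Co and GFP because they share no mice; with the mouse as a random replicate block 249 genes were called. The other settings (scaling, filters, the fit of both groups alone, no trend, Krt14 and Krt15 zeros as missing, length trend removed) gave 212 to 245 calls; the last 2 were chosen after seeing the data. Between GFP and Tom, 18 genes were called with a random replicate block, 5 with a fixed replicate block, 7 without the filter, 30 with a pseudocount of 0.1 and 6 to 30 without 1 b-KC GFP replicate. For the difference from HF-SC a pseudocount of 0.1 gave 232, the random replicate block 162, and leaving out 1 b-KC GFP replicate 99 to 157. Of 133 genes named with a fold change, 3 changed sign, all with the length trend removed: Fosl2 (0.17), S100a6 (-0.51) and S100a11 (-0.51). Of 79 named genes that were called, 23 lost the call in at least 1 alternative. Leaving out Co mouse 825 ended the call of Pglyrp1, Serpinb2, Il17c, Krt6a, Klk6, Pgk1, Gapdh, Col17a1, Mmp3, Scd1, Ear6 and Thbd, Co mouse 828 that of Pglyrp1, Il17c, Krt6a, Klk6, Pgk1, Gapdh, Col17a1, Ear6, Pla2g4e and Thbd, and Co mouse 810 that of Pglyrp1, Il17c, Col17a1, Scd1 and Dkkl1. Leaving out GFP mouse 814 ended that of Pglyrp1, Serpinb2, Il1f6, Il17c, Areg, Krt6a, Klk6, Pgk1, Gapdh, Lor, Col17a1, Hlf, Wnt3a, Mmp3, Ear6 and Pla2g4e, GFP mouse 815 that of the same genes except Lor and Hlf, and of Scd1, Cd177 and Thbd, and GFP mouse 817 that of Flg2, Scd1, Dkkl1 and Thbd. Removing the length trend ended that of Il17c (1.70), Ccl20 (1.89), Areg (1.74), Pgk1 (1.79), Gapdh (1.65), Flg2 (-1.66), Col17a1 (-1.74), Scd1 (-1.86) and Tarm1 (1.54). The fit of both groups alone ended that of Pglyrp1, Il1f6, Il17c, Areg, Krt6a, Klk6, Col17a1, Dkkl1, Pla2g4e, Cd177 and Ear6, scaling by the 75th percentile that of Pgk1, Gapdh, Pla2g4e and Thbd, scaling to the same median that of Serpinb2, Flg2, Col17a1, Wnt3a and Dkkl1, the pseudocount of 0.1 that of Lor, and no filter that of Il17c. The cause was not tested. Depth limits genes under about 0.152 FPKM on a transcript of 1 kb (3 reads), and 3 mice a group limit the precision of all.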

Other observations

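Further gene lists were read against the 12.5% of all genes that passed the adjusted p upward and the 12.0% that passed downward in b-KC GFP against Co. These shares stand for 1597 and 1529 genes, which became 2128 and 1916 without the GFP library of mouse 817. Of 21 tested interferon-stimulated genes 5 passed the adjusted p upward and none downward, with a median log2 fold change of 0.49. Of 29 genes of apoptosis and p53, 6 passed upward and 1 downward (0.30). Of 27 desmosome and junction genes 4 passed upward and 9 downward (-0.56). Of 21 Lce genes none passed upward and 1 downward (-0.14), and with the length trend removed, for the 18 of known length, 4 passed downward, 2 were called lower and the median was -0.94. Without the GFP library of mouse 817, 1 Lce gene was called higher and 1 lower. Of 28 genes of sterol and fatty acid synthesis none passed upward and 2 downward (-0.10), of 17 heat shock genes 3 and 3 (-0.07), of 13 arginine and polyamine genes 3 and 1 (0.33), of 14 vitamin D and retinoid genes 1 and 2 (-0.33; 4 and 3 without the GFP library of mouse 817), and of 17 prostaglandin and lipoxygenase genes 6 and 4 (-0.44).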
